A study of Mus musculus with 8 samples.

Results

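The 10 genes described here encode chaperones, folding enzymes and transcription factors of the endoplasmic reticulum (ER) and its stress response. They were selected by name: Hspa5, Hsp90b1, Dnajb9, Calr, Canx, Pdia3, Pdia4, Pdia6, Xbp1 and Ddit3 each have a probe set annotated to that gene alone, and they are 10 of the 19938 genes measured. Expression was measured on 8 arrays of primary malignant peripheral nerve sheath tumours from NPcis mice, which carry mutations of Nf1 and of the tumour suppressor Trp53 on the same chromosome. Of the 4 groups of 2 arrays, the first had received rapamycin (an mTORC1 inhibitor, 5 mg/kg by intraperitoneal injection) together with PD-0325901 (a MEK inhibitor, 1.5 mg/kg by oral gavage, 2 doses per day), here called the combination. The second had received PD-0325901 alone, the third rapamycin alone and the fourth vehicle, each for 14 h, and all 4 share the NPcis background. The labels do not say whether the 2 arrays of a group came from separate animals, so every p-value covers only the spread between these samples, which may be technical. No group is a pure culture: in whole tumours, fewer cells of a type and less RNA per cell cannot be told apart.

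Secreted and membrane proteins fold inside the ER. Hspa5 (BiP) binds unfolded chains with the help of J proteins such as Dnajb9, Hsp90b1 (GRP94) finishes a narrower set of clients, Calr and Canx hold glycoproteins while Pdia3 forms their disulphide bonds, and Pdia4 and Pdia6 are further disulphide isomerases. When unfolded protein builds up, the sensors IRE1, PERK and ATF6 start the unfolded protein response: IRE1 splices the Xbp1 transcript, ATF6 and spliced XBP1 raise the chaperone genes, and PERK acts through ATF4 on Ddit3 (CHOP), a factor linked to cell death under lasting stress. mTORC1 and ERK signalling both promote protein synthesis, which sets how much protein enters the ER. The study asked about signalling and drug markers in cancers with NF1 mutations, as its title has it.

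ATF6 acts through the ER stress response element, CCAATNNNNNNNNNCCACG (N is any base; reverse strand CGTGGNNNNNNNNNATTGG). The element was searched on both strands of the RefSeq promoter windows (GRCm38.p6, 250 bases before to 50 after each annotated start), in which all 10 genes were found. Exact matches lay in the windows of 5 of the 10 genes, Hspa5, Hsp90b1, Calr, Canx and Pdia6, and in 39 of all 32851 windows (0.119%). They are shown because they are the sequence feature these 5 genes share, each as 47 bases of the gene's own strand, 5′ to 3′, with the outer fixed letters of the element in capitals.
Hspa5 (chr2:34772011-34772057, plus strand): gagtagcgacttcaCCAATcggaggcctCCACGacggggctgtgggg
Hsp90b1, far copy (chr10:86705624-86705670, minus strand): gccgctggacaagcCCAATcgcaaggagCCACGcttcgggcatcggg
Hsp90b1, near copy (chr10:86705519-86705565, minus strand): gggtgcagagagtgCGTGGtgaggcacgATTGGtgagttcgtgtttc
Calr (chr8:84847061-84847107, minus strand): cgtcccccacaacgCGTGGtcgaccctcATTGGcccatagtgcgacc
Canx (chr11:50325786-50325832, minus strand): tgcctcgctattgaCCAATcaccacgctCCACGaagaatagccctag
Pdia6 (chr12:17266477-17266523, plus strand): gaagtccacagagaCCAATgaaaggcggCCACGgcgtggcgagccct

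Counted back from the annotated start, the element began at base -65 in Hspa5, -98 in Pdia6, -145 in Canx, -162 in Calr, and -212 and -107 in Hsp90b1, the single one of the 10 with 2 exact copies. The Calr copy and the near Hsp90b1 copy run in the reverse direction. All 6 spacers of 9 bases held 6 or 7 G or C bases. In Canx a further CCACG lies inside the spacer. The UPR element core TGACGTG was found in 1 of the 10 windows, that of Hspa5, beginning at base -157, against 2.01% of all windows. The 200 bases before the Hspa5 start (chr2:34771890-34772089, plus strand) are printed because this gene alone held both elements, which are in capitals: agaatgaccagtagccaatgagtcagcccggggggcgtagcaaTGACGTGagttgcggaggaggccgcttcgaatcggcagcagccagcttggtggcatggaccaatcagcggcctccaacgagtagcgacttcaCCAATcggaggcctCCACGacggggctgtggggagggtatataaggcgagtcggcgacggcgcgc

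Matches with 1 mismatch to the 10 fixed letters, a search added after the exact one, lay in the windows of Pdia3 (from base -29), Pdia4 (-108) and Ddit3 (-91), with a further one in Hsp90b1 (-172). With at most 1 mismatch the element was thus found in 8 of the 10 genes and in 1.50% of all windows. Dnajb9 and Xbp1 held none. The second ER stress response element (ATTGG, 1 base of any kind, CCACG) and the CHOP and ATF4 composite element, TGATGNAA, were found in 0 of the 10 windows, and in 0.0365% and 3.97% of all windows. A match is a description of the letters in this window, not evidence of binding.

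**Figure D1:**
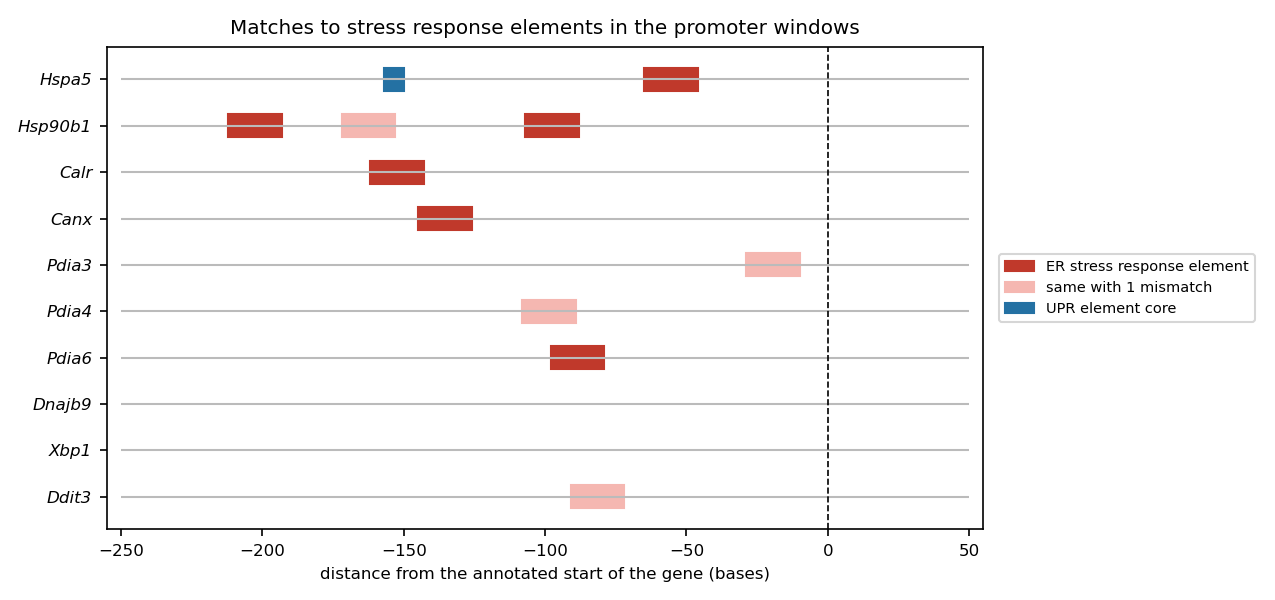
Positions of stress response elements in the promoter windows of the 10 genes; the x axis is the distance in bases from the annotated start (dashed line) and each grey line is 1 window. Exact ER stress response elements (red) lie in 5 windows, matches with 1 mismatch (pink) in 3 further genes, and the UPR element core (blue) in Hspa5.

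The deposited values are log2 expression per probe set, so a difference of 1 is a factor of 2. Array medians lay between 7.79 and 7.90. The 4 pairs of arrays from one group correlated by 0.961 to 0.986 and the 24 pairs from different groups by 0.963 to 0.985, so groups were no tighter than the series as a whole. Differences were tested with limma over all 19938 genes, with p-values adjusted by the Benjamini-Hochberg method. Among Schwann lineage markers Sox10 lay between 7.85 and 8.17 and S100b between 7.12 and 7.32 on the log2 scale on the 8 arrays. The file holds no detection calls, so the presence of the lineage was not tested.

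None of the 10 genes passed an adjusted p of 0.05 in any of the 8 comparisons (80 tests in limma), and 0 of all 19938 genes (0%) did. Hsp90b1 had the smallest p with the MEK inhibitor and was lower in the combination and in PD-0325901 tumours than in vehicle tumours, and Dnajb9 had the smallest with rapamycin alone and was higher. At an unadjusted p under 0.05 there were 3 results among the 80: Hsp90b1 for the arrays with PD-0325901 against those without, Hsp90b1 for the combination against vehicle, and Dnajb9 for rapamycin against vehicle. Over all genes 9.6%, 9.07% and 4.93% passed this threshold in the same 3 comparisons, so 1 gene of 10 in each is close to the background. These 3 results did not hold in every setting: the count was 0 for the PD-0325901 main effect when combination array 2, vehicle array 1 or any one PD-0325901 array was left out, 0 for the combination against vehicle without either vehicle array, either PD-0325901 array or combination array 2, and 0 for rapamycin against vehicle without any one of the vehicle or rapamycin arrays. The other 5 comparisons had 0 of the 10 genes, against 5.55% of all genes for the rapamycin main effect, 5.84% for PD-0325901 against vehicle, 6.66% and 3% for the combination against rapamycin and against PD-0325901, and 2.18% for the interaction. Only 2 arrays stand in each group, and the smallest exact permutation p for 2 arrays against 2 is 0.333.

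**Figure D2:**
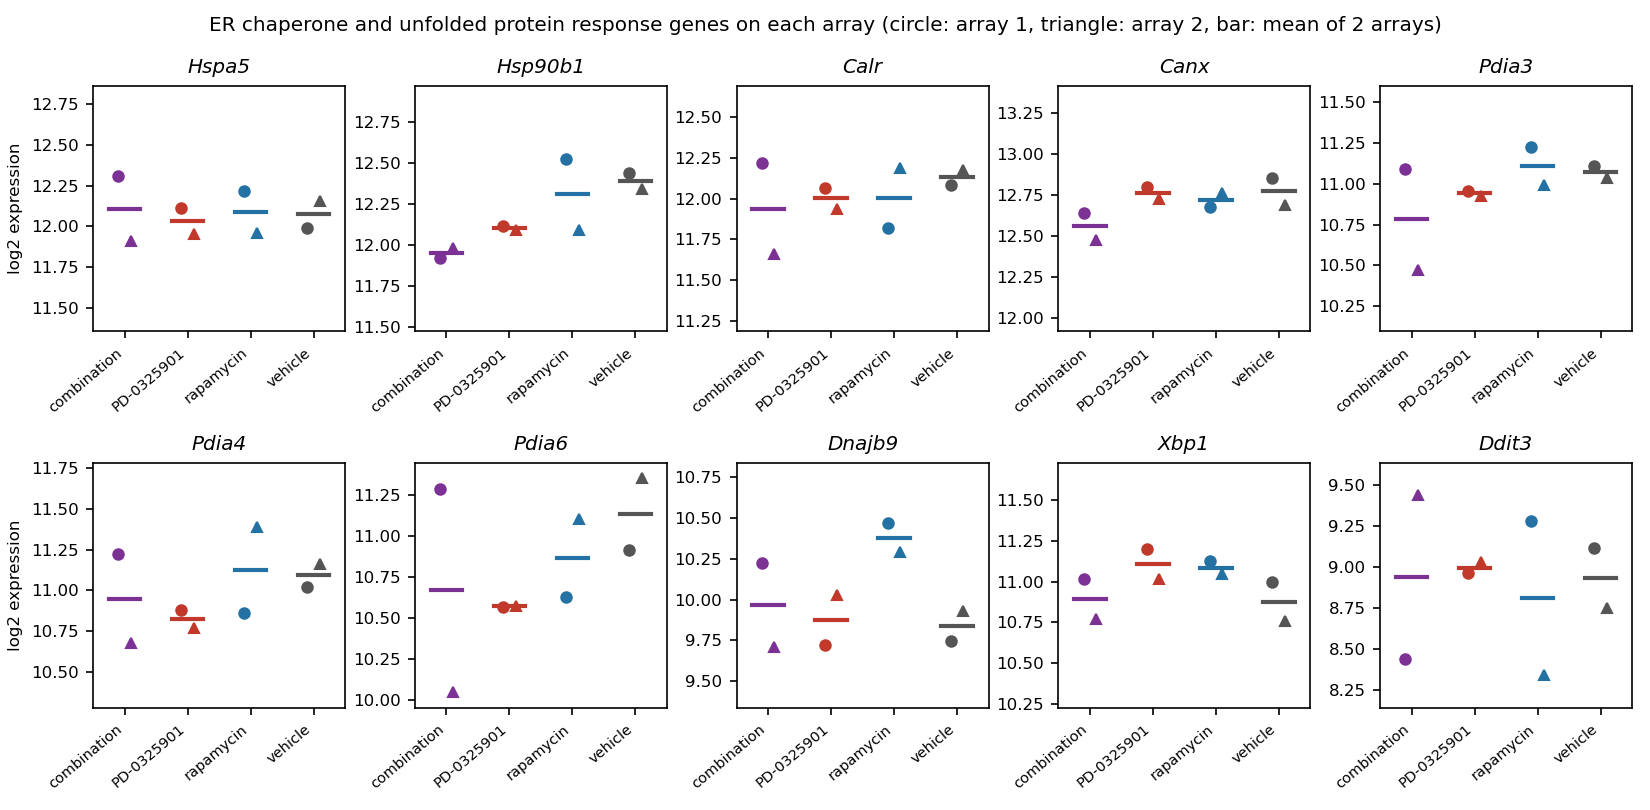
Log2 expression (y axis) of the 10 genes in each group (x axis); circles are array 1, triangles array 2, bars the mean of the 2 arrays, and every panel spans the same 1.5 log2 units. The PD-0325901 arrays lie close together for most genes, while the combination arrays are far apart for Pdia6 and Ddit3.

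Hspa5, the central Hsp70 chaperone of the ER and the usual marker of ER stress, had log2 levels of 12.31 and 11.91 in combination tumours, 12.11 and 11.95 in PD-0325901 tumours, 12.22 and 11.96 in rapamycin tumours and 11.99 and 12.16 in vehicle tumours. All 4 groups overlap, and the group means spanned only 0.0772 log2 units, against a gap of 0.39 between the 2 combination arrays. Its differences were 0.04 (SE 0.17, 95% interval -0.39 to 0.46, adjusted p = 0.974) for the combination, -0.04 (SE 0.17, 95% interval -0.47 to 0.38, adjusted p = 0.999) for PD-0325901 and 0.01 (SE 0.17, 95% interval -0.41 to 0.44, adjusted p = 0.996) for rapamycin, each against vehicle.

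Hsp90b1, the Hsp90 paralogue of the ER lumen, had log2 levels of 11.92 and 11.98 in combination tumours, 12.12 and 12.09 in PD-0325901 tumours, 12.52 and 12.09 in rapamycin tumours and 12.44 and 12.34 in vehicle tumours. Both combination arrays lay below every other array of the series, both PD-0325901 arrays lay below both vehicle arrays, and rapamycin array 2 lay among the PD-0325901 values. How many of all genes have a group beyond every other array was not counted. Against vehicle alone, 22.3% of all genes lay lower in the combination without overlap. The mean was 12.03 on the 4 arrays with PD-0325901, against 12.35 on the 4 without it, a difference of -0.32 (SE 0.11, 95% interval -0.59 to -0.05, adjusted p = 0.437) or a fold of 0.800. Against vehicle the difference was -0.44 (SE 0.15, 95% interval -0.82 to -0.06, adjusted p = 0.485) in the combination and -0.29 (SE 0.15, 95% interval -0.67 to 0.09, adjusted p = 0.963) with PD-0325901 alone, and the combination differed from rapamycin by -0.36 (SE 0.15, 95% interval -0.73 to 0.02, adjusted p = 0.773). Without rapamycin array 1 the last value was -0.14 and without rapamycin array 2 it was -0.57. The gap between the rapamycin arrays was 0.43, against a range of 0.44 for the group means. The order of the means ran from combination through PD-0325901 and rapamycin to vehicle, and rapamycin and vehicle did not differ beyond the spread of the rapamycin arrays.

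Dnajb9 (ERdj4), a J protein that works with Hspa5 and a classical target of spliced XBP1, had log2 levels of 10.22 and 9.71 in combination tumours, 9.72 and 10.03 in PD-0325901 tumours, 10.47 and 10.29 in rapamycin tumours and 9.74 and 9.93 in vehicle tumours. Both rapamycin arrays lay above all 6 other arrays. The share of all genes with a group beyond every other array was not counted. Against vehicle alone, 12.5% of all genes lay higher with rapamycin without overlap. The difference was 0.54 (SE 0.21, 95% interval 0.04 to 1.04, adjusted p = 0.964) for rapamycin against vehicle, a fold of 1.45, and 0.13 (SE 0.21, 95% interval -0.37 to 0.64, adjusted p = 0.896) for the combination against vehicle. Combination array 1 stood above both vehicle arrays and combination array 2 below both, so the difference of the combination from vehicle was 0.39 without combination array 2 and -0.12 without combination array 1. Over both settings of the MEK inhibitor the rapamycin main effect, the mean of its effects without and with PD-0325901, was 0.32 (SE 0.15, 95% interval -0.04 to 0.67, adjusted p = 0.898).

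Calr, the soluble lectin chaperone that also stores calcium, had log2 levels of 12.22 and 11.66 in combination tumours, 12.07 and 11.93 in PD-0325901 tumours, 11.82 and 12.19 in rapamycin tumours and 12.08 and 12.18 in vehicle tumours. Its membrane-bound partner Canx had 12.64 and 12.48 in combination tumours, 12.80 and 12.72 in PD-0325901 tumours, 12.68 and 12.76 in rapamycin tumours and 12.86 and 12.69 in vehicle tumours. Calr overlapped between the combination, rapamycin and vehicle, while both PD-0325901 arrays lay just below both vehicle arrays, at a difference of -0.13 (SE 0.22, 95% interval -0.66 to 0.40, adjusted p = 0.999). Canx was the steadiest of the 10, with a residual SD of 0.0921 log2 units and a range of 0.38 over the 8 arrays. Both combination arrays of Canx lay below all 6 others, with a difference of -0.21 (SE 0.11, 95% interval -0.49 to 0.07, adjusted p = 0.650) against vehicle, and the PD-0325901 arrays differed from vehicle by -0.01 (SE 0.11, 95% interval -0.29 to 0.27, adjusted p = 0.999). As for Hsp90b1, the share of all genes with a group below every other array was not counted.

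Pdia3 (ERp57), the disulphide isomerase that works with both lectins, had log2 levels of 11.09 and 10.47 in combination tumours, 10.95 and 10.93 in PD-0325901 tumours, 11.22 and 10.99 in rapamycin tumours and 11.11 and 11.04 in vehicle tumours. Combination array 2 was 0.62 below combination array 1 and the lowest of the 8. The difference of the combination from vehicle was -0.29 (SE 0.21, 95% interval -0.81 to 0.22, adjusted p = 0.747). PD-0325901 alone differed from vehicle by -0.13 (SE 0.21, 95% interval -0.65 to 0.38, adjusted p = 0.999), with arrays that did not overlap.

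Pdia4 (ERp72), an isomerase with an additional catalytic domain, had log2 levels of 11.22 and 10.68 in combination tumours, 10.88 and 10.77 in PD-0325901 tumours, 10.86 and 11.39 in rapamycin tumours and 11.02 and 11.16 in vehicle tumours. Pdia6 (P5), an isomerase that binds Hspa5 and dampens the sensor IRE1, had 11.29 and 10.05 in combination tumours, 10.57 and 10.57 in PD-0325901 tumours, 10.63 and 11.11 in rapamycin tumours and 10.92 and 11.36 in vehicle tumours. In both genes the PD-0325901 arrays lay below both vehicle arrays, at differences of -0.26 (SE 0.24, 95% interval -0.86 to 0.33, adjusted p = 0.998) and -0.57 (SE 0.41, 95% interval -1.58 to 0.45, adjusted p = 0.998). For Pdia6 this was the largest difference among the 10 genes in this comparison, a fold of 0.676, but the 2 combination arrays of the same gene were 1.24 log2 units apart, so its intervals are wide. Pdia4 has a second probe set, annotated only to a predicted transcript. On that probe set PD-0325901 differed from vehicle by 0.20 (SE 0.12) and the combination from PD-0325901 by -0.30 (SE 0.12), each opposite in sign to the probe set used here (-0.26 and 0.12).

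Xbp1, the transcription factor activated by IRE1, had log2 levels of 11.02 and 10.77 in combination tumours, 11.20 and 11.02 in PD-0325901 tumours, 11.12 and 11.05 in rapamycin tumours and 10.997 and 10.76 in vehicle tumours. A probe set level does not tell spliced from unspliced transcript. Both PD-0325901 arrays and both rapamycin arrays lay above both vehicle arrays, at differences of 0.23 (SE 0.14, 95% interval -0.12 to 0.58, adjusted p = 0.996) and 0.21 (SE 0.14, 95% interval -0.14 to 0.56, adjusted p = 0.964), while the combination differed from vehicle by 0.02 (SE 0.14, 95% interval -0.33 to 0.37, adjusted p = 0.987). Each drug alone thus stood 0.21 to 0.23 above vehicle and the combination differed from rapamycin by -0.19. The interaction of the drugs was -0.42 (SE 0.20, 95% interval -0.92 to 0.07, adjusted p = 0.9999), which did not pass.

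Ddit3 (CHOP), the death-linked factor of the PERK branch, had log2 levels of 8.44 and 9.44 in combination tumours, 8.96 and 9.03 in PD-0325901 tumours, 9.28 and 8.34 in rapamycin tumours and 9.11 and 8.75 in vehicle tumours. The combination arrays differed by 0.999 and the rapamycin arrays by 0.94, against 0.07 for PD-0325901 and 0.36 for vehicle, and all groups overlap. The group means spanned 0.18. Its differences against vehicle were 0.01 (SE 0.42, 95% interval -1.02 to 1.03, adjusted p = 0.999) for the combination, 0.06 (SE 0.42, 95% interval -0.96 to 1.09, adjusted p = 0.999) for PD-0325901 and -0.12 (SE 0.42, 95% interval -1.15 to 0.91, adjusted p = 0.989) for rapamycin. The residual SD of Ddit3, 0.503, was higher than that of 92.0% of all genes, and that of Pdia6, 0.495, higher than that of 91.7%.

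**Figure D3:**
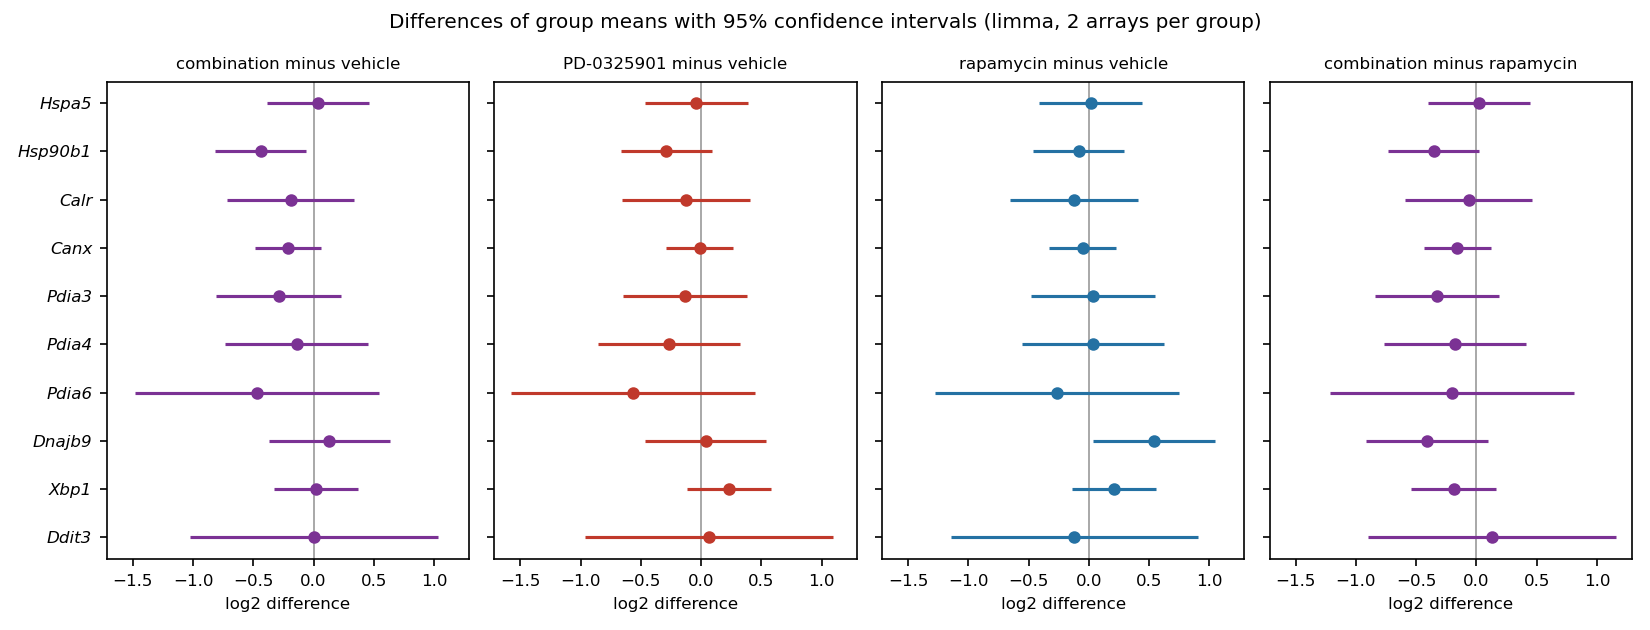
Log2 difference (x axis) of each gene (rows) with its 95% confidence interval from limma, for the combination, PD-0325901 and rapamycin against vehicle and for the combination against rapamycin. Most intervals cross 0; those of Hsp90b1 (combination minus vehicle) and Dnajb9 (rapamycin minus vehicle) do not, and neither passed after adjustment.

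The median of the 10 differences was -0.14 for the arrays with PD-0325901 against those without it, with 8 genes lower and 2 higher, where 54% of all genes were lower and the median of all genes was -0.01. Without combination array 2 the median of the 10 was -0.066, and without combination array 1 it was -0.27. None of the 10 had all 4 arrays with the drug beyond all 4 without it. Among all genes 2.39% lay lower and 3.34% higher in this way. For the rapamycin main effect the median was -0.07, with 7 lower and 3 higher, against -0.01 over all genes, of which 53.8% were lower. Again 0 of the 10 had arrays that did not overlap, where 1.41% of all genes lay higher and 1.94% lower in this way.

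PD-0325901 alone against vehicle gave a median of -0.08, with 7 genes lower (all genes 53.8%). Arrays did not overlap for 5 lower genes, Hsp90b1, Calr, Pdia3, Pdia4 and Pdia6, and for 1 higher gene, Xbp1, where 20.9% of all genes lay lower and 17.6% higher without overlap. The 5 lower genes are above that share, but Calr, Pdia4 and Pdia6 varied together across arrays, and the excess was not tested. The combination against vehicle gave -0.17, with 6 lower (all genes 53.7%), and no overlap for 2 lower genes, Hsp90b1 and Canx, and 0 higher (all genes 22.3% and 17.9%). Rapamycin against vehicle gave -0.02, with 5 lower (all genes 54.1%) and 5 higher, and no overlap for 2 higher genes, Dnajb9 and Xbp1, and 0 lower (all genes 12.5% higher and 17.9% lower). These 3 comparisons share the vehicle arrays. The combination against rapamycin gave -0.18, with 8 lower (all genes 51.7%) and no overlap for 4 lower genes, Hsp90b1, Canx, Dnajb9 and Xbp1, and 0 higher (all genes 15.1% and 16%). The combination against PD-0325901 gave -0.06, with 6 lower (all genes 52.1%) and no overlap for 2 lower genes, Hsp90b1 and Canx, and 0 higher (all genes 18.2% and 16.3%). For the interaction 5 of the 10 lay below 0 (all genes 48.2%).

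Several of these medians depended on combination array 2. It was the lowest of the 8 arrays for 7 of the 10 genes, Hspa5, Calr, Canx, Pdia3, Pdia4, Pdia6 and Dnajb9, and the highest for Ddit3. The median deviation of the 10 genes from their own means was -0.26 on this array, against 0.16 on combination array 1 and -0.07 to 0.14 on the other 6. Genes in the top 5% of level outside the 10, a range that also holds Hspa5, Hsp90b1, Calr and Canx, had a median deviation of -0.08 on the same array and -0.03 to 0.05 on the others. After quantile normalization the median of the 10 on combination array 2 was -0.23, and it was the lowest array for 5 of them. Without combination array 2 the median difference was 0.11 for the combination against vehicle, 0.18 against PD-0325901 and -0.042 against rapamycin.

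**Figure D4:**
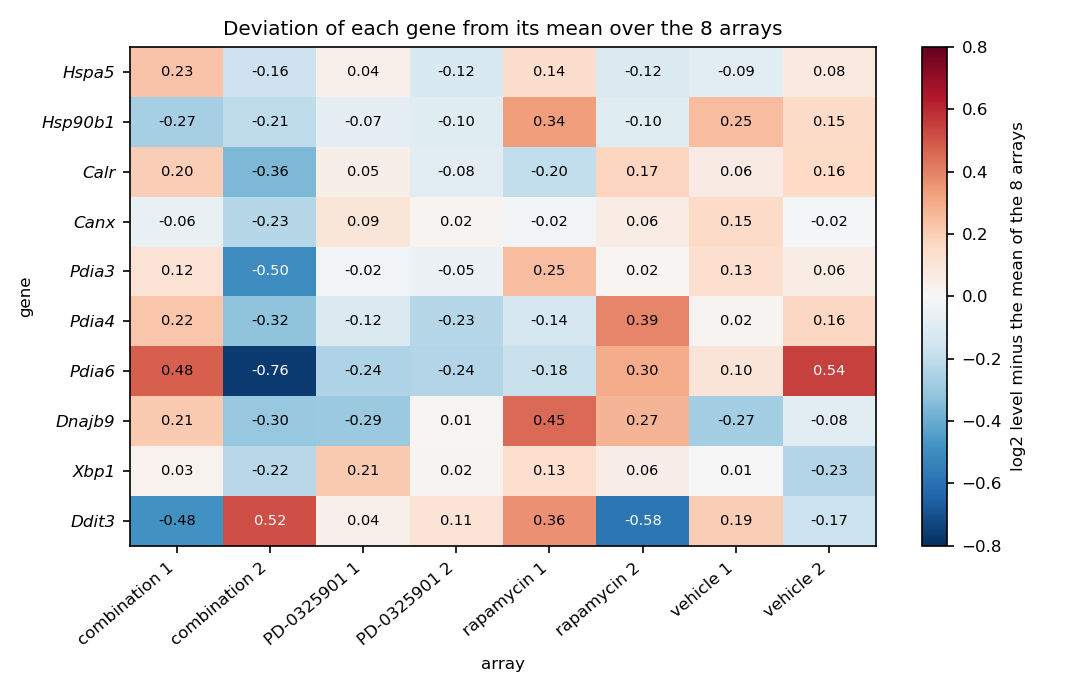
Deviation of each gene (rows) on each array (columns) from its mean over the 8 arrays, in log2 units, as colour and number. Combination array 2 is below the mean for 9 genes and above it for Ddit3, and Calr, Pdia4 and Pdia6 run opposite to Ddit3.

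Calr, Pdia4 and Pdia6 varied together across the 8 arrays, with pairwise Pearson correlations of 0.87 to 0.91, and opposite to Ddit3, with correlations of -0.88, -0.91 and -0.82 (Spearman -0.90, -0.88 and -0.69). These genes were picked out after the 45 pairs among the 10 had been seen, so the values are a description with no test. Without the 2 arrays farthest from the Ddit3 median, rapamycin array 2 and combination array 1, the correlations with Ddit3 were -0.92, -0.76 and -0.82 over 6 arrays. Over all genes, 0.216%, 0.1003% and 0.953% had a lower correlation with Ddit3 than Calr, Pdia4 and Pdia6. The pattern lay within the treatment groups. Array 1 minus array 2 was 0.56, 0.55 and 1.24 for Calr, Pdia4 and Pdia6 in the combination, against -0.999 for Ddit3. In rapamycin tumours it was -0.37, -0.53 and -0.48, against 0.94 for Ddit3, and in vehicle tumours -0.09, -0.14 and -0.44, against 0.36. The PD-0325901 arrays differed by at most 0.13 in any of these 4 genes. Hspa5 and Hsp90b1 did not share the pattern (correlations with Ddit3 of -0.31 and 0.35).

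**Figure D5:**
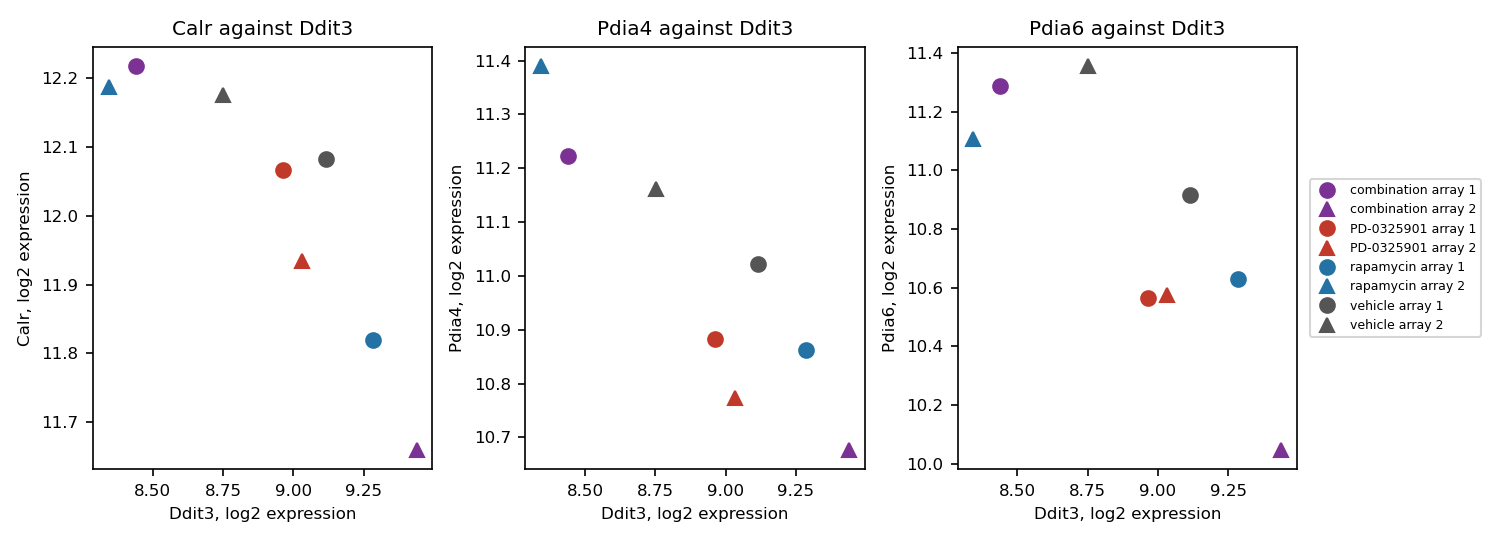
Log2 expression of Calr, Pdia4 and Pdia6 (y axes) against that of Ddit3 (x axes) on the 8 arrays, coloured by group, circles for array 1 and triangles for array 2. Arrays high in Ddit3 are low in the 3 folding genes, and the 2 arrays of the combination, like the 2 of rapamycin, lie at opposite ends.

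Other genes of the pathway were read from 5 lists with 69 names, of which 65 were measured, and 0 of them passed an adjusted p of 0.05 in any comparison. Of 20 further chaperones and folding enzymes, 14 were lower and 6 higher on the arrays with PD-0325901 than on those without, with a median of -0.09 and 0 at an unadjusted p under 0.05. Of all genes 54% were lower and 9.6% had an unadjusted p under 0.05. Creld2, an ER stress-induced folding factor, differed by -0.34 (SE 0.15, adjusted p = 0.557), Ero1a, the oxidase that recharges disulphide isomerases, by -0.74 (SE 0.33, adjusted p = 0.565), and Sdf2l1, a partner of Hspa5, by -0.38 (SE 0.19, adjusted p = 0.617). Ero1a had 9.54 and 9.73 in combination tumours, 9.63 and 9.75 in PD-0325901 tumours, 10.21 and 10.26 in rapamycin tumours and 11.35 and 9.79 in vehicle tumours. Vehicle array 1 stood far above the rest for Ero1a, and all 4 arrays with PD-0325901 lay below all 4 without (all genes 2.39%). The paralogue Ero1b differed by 0.19 (SE 0.08, adjusted p = 0.895) for the rapamycin main effect.

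Of 14 measured genes of ER-associated degradation, which returns misfolded protein to the cytosol, 9 were lower (all genes 54%) and 5 higher with PD-0325901, with a median of -0.12. At an unadjusted p under 0.05 there were 2 higher and 0 lower (all genes 5.47% and 4.14%). Those 2 were Man1b1, a mannosidase that marks glycoproteins for degradation, at 0.40 (SE 0.08, adjusted p = 0.205), and Herpud1, a stress-induced scaffold of the degradation complex, at 0.45 (SE 0.16, adjusted p = 0.452). Herpud1 had 10.91 and 10.84 in combination tumours, 11.15 and 10.84 in PD-0325901 tumours, 10.65 and 10.001 in rapamycin tumours and 10.64 and 10.64 in vehicle tumours. For both genes all 4 arrays with PD-0325901 lay above all 4 without (all genes 3.34%), the direction opposite to that of 8 of the 10 genes. Ube2j1, an ER ubiquitin-conjugating enzyme, differed by -0.18 (SE 0.08, adjusted p = 0.540). Man1b1 also had the smallest p of this list for rapamycin, at 0.25 (SE 0.08, adjusted p = 0.807).

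Among 13 measured translocon and KDEL receptor genes, which carry new chains into the ER and bring escaped chaperones back, 9 were lower (all genes 54%) and 4 higher with PD-0325901, with a median of -0.06. Ssr4, a translocon-associated subunit, differed by -0.28 (SE 0.11, adjusted p = 0.524), Sec63, which recruits Hspa5 to the channel, by -0.22 (SE 0.13, adjusted p = 0.698), and Kdelr1, a KDEL receptor, by -0.12 (SE 0.07, adjusted p = 0.704). For rapamycin 11 of the 13 were lower (all genes 53.8%), with a median of -0.11. Spcs2, a signal peptidase subunit, differed by -0.31 (SE 0.07, adjusted p = 0.752) with all 4 rapamycin-treated arrays below the 4 without the drug (all genes 1.94%).

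Of 8 measured sensors and membrane-bound factors 5 were higher and 3 lower with PD-0325901, with a median of 0.09 and 2 higher and 0 lower at an unadjusted p under 0.05, where the shares of all genes were 5.47% and 4.14%. Atf6b, a paralogue of ATF6, differed by 0.23 (SE 0.07, adjusted p = 0.373), Mbtps1, the protease that releases ATF6, by 0.46 (SE 0.16, adjusted p = 0.443), and Eif2ak3, which encodes PERK, by 0.20 (SE 0.17, adjusted p = 0.809). Ern1, which encodes IRE1, differed by 0.25 (SE 0.13, adjusted p = 0.902) for rapamycin. Among 10 genes of the PERK branch 6 were lower (all genes 54%) and 4 higher with PD-0325901, with a median of -0.10. At an unadjusted p under 0.05 there were 1 higher and 1 lower of the 10, against 5.47% and 4.14% of all genes. Cebpb, a transcription factor that pairs with CHOP, differed by -0.25 (SE 0.08, adjusted p = 0.438), Atf3, a stress-induced factor, by 0.58 (SE 0.20, adjusted p = 0.443), and Ppp1r15a, which ends the PERK signal, by -0.15 (SE 0.11, adjusted p = 0.767). Atf4 differed by -0.26 (SE 0.12, adjusted p = 0.898) for rapamycin, with 9 of the 10 genes lower (all genes 53.8%) and a median of -0.12.

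The exact ER stress response element was also looked for across the 15614 measured genes with a promoter window, and 21 held it. Of these, 5 are among the 10 genes and 5 are on the other lists: Dnajc3, Creld2, Ero1b, Syvn1 and Derl3. The remaining 11 are on none. On the arrays with PD-0325901 15 of the 21 were lower (all genes 54%) and 6 higher, with a median of -0.08. Without the 10 genes described here 10 of 16 were lower, with a median of -0.07. All 5 genes of the 10 with the element were lower (median -0.10), against 3 of the 5 without it (median -0.19). For rapamycin the medians were -0.09 for the 5 of the 10 with the element and -0.0023 for the 5 without it. Of all 21 genes with the element, 12 were lower for rapamycin (all genes 53.8%), with a median of -0.04. Outside the 10 genes, 8 of 16 were lower, with a median of 0.02.

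Most markers of several other cell types lay to one side with PD-0325901. So did most cytosolic heat shock and immediate early genes, which are not markers of a cell type. As for all genes, 0 of them passed an adjusted p of 0.05. Macrophage markers were higher for 10 of 10 genes and T and NK cell markers for 10 of 10, endothelial markers were lower for 9 of 9, and cytosolic heat shock and immediate early genes were lower for 10 of 11. Of all genes 54% were lower. At an unadjusted p under 0.05, 7 macrophage and 8 T and NK cell markers were higher (all genes 5.47%). In the same way 5 endothelial and 6 heat shock and immediate early genes were lower (all genes 4.14%). B and plasma cell markers had 2 higher, Schwann cell markers 1, and fibroblast and erythroid markers 0. The mean deviation of a list's genes from their own means was -0.16 to 0.45 on the 4 arrays with PD-0325901 against -0.39 to -0.06 on those without for macrophages, -0.07 to 1.002 against -0.63 to 0.01 for T and NK cells, and -0.41 to 0.14 against -0.10 to 0.63 for endothelium. For heat shock and immediate early genes it was -0.49 to -0.15 against 0.10 to 0.60, the one list of these 4 whose arrays did not overlap. T and NK markers were highest on combination array 2, at 1.002, and erythroid markers on PD-0325901 array 2, at 1.84. B and plasma cell markers, from cells rich in these chaperones, gave -0.13 to 0.22 against -0.10 to 0.06, fibroblast markers -0.32 to 0.45 against -0.73 to 0.65, and Schwann cell markers -0.03 to 0.23 against -0.22 to 0.06. The part of these lists in the values of Hsp90b1 and the other genes was not tested. No marker is listed at 0.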

How the data were processed

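Log2 expression values of 35512 probe sets on 8 Affymetrix arrays were used as the authors deposited them; that they are log2 was read from their range, and the background correction, normalization and software were not given in the sources used here. Per the labels' protocols, Trizol and RNeasy RNA was amplified and labelled with the Nugen Applause kit. Of the probe sets, 21789 are annotated to 1 gene, 1621 to several and 12101 to none; 1 is empty. The probe set with the highest mean represented each of 19938 genes. A model of 4 group means was fitted to all genes with limma 3.58.1 (two-sided moderated test, lmFit and eBayes) under R 4.3.3, having 4 residual and 1.98 prior degrees of freedom, and Benjamini-Hochberg adjustment over all genes. On simulated arrays with independent spread, 83% of true 1 log2 differences were recovered for the PD-0325901 main effect, which compares 4 arrays against 4. The simulated spread was normal and used the moderated variance of each gene, which varies less between genes than the unmoderated one. The share is therefore not the power in these data. Smaller differences and comparisons of 2 arrays against 2 were not simulated. Groups came from the sample titles. The 10 genes, the lists and the tests were chosen with earlier results of these data known. All 10 are named. From each pathway list the text names 3 genes with the lowest p for PD-0325901 over its 2 settings and 1 for rapamycin, plus the 5 genes most correlated with the mean of the 10 and with Ddit3. Same-numbered arrays of different groups are not stated to be paired. Promoter windows are RefSeq's, GRCm38.p6.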

Additional observations from a re-analysis of the deposited data

Results flagged for a closer look

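Xbp1 was flagged because the effect of PD-0325901 had opposite directions without and with rapamycin, with no overlap of arrays in either comparison. The share of all genes with this double pattern was not counted. Taken singly, 17.6% of all genes lay higher without overlap for PD-0325901 against vehicle. For the combination against rapamycin, 15.1% lay lower without overlap. Both PD-0325901 arrays (11.20 and 11.02) lay above both vehicle arrays (10.997 and 10.76), and both combination arrays (11.02 and 10.77) lay below both rapamycin arrays (11.12 and 11.05). The interaction was -0.42 log2 units (SE 0.20, adjusted p = 0.9999), so the difference between the effects did not pass the test, and it lay between -0.54 (without combination array 1) and -0.30 (without combination array 2) when single arrays were left out. For the interaction, 2.18% of all genes had an unadjusted p under 0.05, and Xbp1 was not among them. Xbp1 was not alone in this: Dnajb9 and Hspa5 also changed direction, but their PD-0325901 arrays overlapped those of vehicle. Dnajb9 had the lowest interaction of the 10 genes, at -0.45.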

How the results depend on the processing

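The count of the 10 genes past the threshold was 0 in all 8 comparisons under the deposited values and under every alternative run: quantile normalization, median centring, only genes above the median level, a robust prior with a variance trend, probe sets of each gene averaged, the replicate block, a fit of only the groups compared (not run for the interaction), an adjusted p threshold of 0.1 and leaving out each of the 8 arrays (limma). Over all genes the count was 22 for PD-0325901 in the fit of 4 arrays against 4, 4 and 15 for rapamycin against vehicle without rapamycin array 1 and array 2, and 2 to 9 in 6 comparisons without vehicle array 2. With single arrays left out, the median difference of the 10 genes ranged from -0.27 to -0.066 for the PD-0325901 main effect, -0.082 to 0.076 for rapamycin, -0.35 to 0.11 for the combination against vehicle, -0.33 to -0.042 against rapamycin, -0.22 to 0.18 against PD-0325901, -0.023 to 0.14 for rapamycin against vehicle, -0.13 to -0.085 for PD-0325901 against vehicle and -0.22 to 0.023 for the interaction. At an unadjusted p under 0.05, the 1 gene of the 10 for the combination against vehicle was also lost (count 0) under quantile normalization and among genes above the median level, and the 1 for rapamycin against vehicle with the replicate block and with the variance trend. Gains at this threshold also occurred, some of them with a single array left out. Those counts rest on a group of 1 array and are not given here. Where every fitted group kept both arrays, the count was 2 of the 10 for PD-0325901 against vehicle in the fit of only those groups. That fit used no other arrays (1657 of all 19938 genes at the same threshold). Counts of 1 came for the combination against rapamycin after median centring (1225) and for the interaction with the replicate block (385). With single arrays left out, the lowest and highest medians came without combination array 1 and combination array 2 in 6 of the 8 comparisons. The cause was not tested. Of the single-gene values under alternatives, 1090 kept their sign and 100 changed it, none of these past the threshold. Many of the 1090 could not change sign, so the count is no measure of stability. The variance trend, the replicate block and the fit of only the groups compared leave each difference as it was. So does leaving out an array of a group outside the comparison. Same-numbered arrays correlated by -0.28 to 0.18 in their deviations, which does not settle whether the numbers pair them. Each group holds 1 array of each number, so the replicate block cannot change any difference and bears only on the spread. The file holds no background signal or detection calls, so no limit of detection could be set. The protein sequences were not used here.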

Other observations

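The genes whose levels followed the mean of the 10 genes most closely over the 8 arrays were Polr2m (Pearson r = 0.97), Mapk9 (0.96), Cops8 (0.95), Kbtbd13 (0.95) and Zwilch (0.94), the highest of 19928 genes compared; 1% of those genes had r above 0.80. All 5 had their lowest value on combination array 2. Those most like Ddit3 were Fbxo7 (0.97), Gzmm (0.97), Bicdl1 (0.96), 4930590J08Rik (0.96) and Slc38a11 (0.95). The 8 arrays are the only points, and these values carry no test. Within the 10 genes, Pdia3 followed the mean of the other 9 most closely (0.96), and Ddit3 ran opposite to it (-0.69).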
